A study of Homo sapiens with 46 samples.

Results

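RNA from genes of the Polycomb complexes was followed through 4 subcellular fractions of human pluripotent stem cells (hPSC) and of 3 germ layer cultures derived from them. The 10 genes, chosen by name, were EZH1, EZH2, SUZ12, EED, JARID2, MTF2, PHF19, RING1, RNF2 and BMI1. They are 10 of the 21166 Ensembl genes listed in the 4 count tables, each of which holds 1 cell type counted on that cell type's own transcript assembly. Of 32819 transcripts counted in hPSC 27 belonged to these genes, as did 37 of the 54325 counted for ectoderm, 27 of the 30409 for endoderm and 31 of the 36407 for mesoderm. The endoderm table listed no transcript named BMI1, so 9 of the genes were measured there and in the fits across all 4 cell types. Every listed gene passed the filter on low counts within its own cell type.

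Polycomb proteins keep developmental genes silent. Polycomb repressive complex 2 (PRC2) methylates lysine 27 of histone H3 through EZH2 or its paralog EZH1, which need EED and SUZ12, while JARID2, MTF2 and PHF19 are accessory subunits that bring the complex to chromatin or tune its activity. Polycomb repressive complex 1 (PRC1) ubiquitinates histone H2A through RING1 or RNF2 paired with a PCGF protein such as BMI1. In pluripotent cells both complexes sit at CpG-rich promoters of lineage regulators, and PRC2 subunits are needed for orderly differentiation.

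The libraries came from H1, an established human embryonic stem cell line, kept in mTeSR1 medium on Matrigel or differentiated for 5 days. Endoderm received WNT3A and Activin A. Mesoderm received VEGF, BMP4 and bFGF, with Activin A at the start only. Ectoderm received the inhibitors A83-01, PNU-74654 and dorsomorphin. Cytoplasm, nucleus, nucleoplasm and chromatin RNA was isolated from each, in buffers that held α-amanitin, an inhibitor of RNA polymerase II, for all groups. The 16 groups hold 3 libraries each, except mesoderm nucleoplasm with 1, which makes 46 libraries. The series text speaks of actinomycin D, but no sample label names it, so the libraries are described here without it. All cultures share 1 cell line, and nothing says that the repeats of a group were separate cultures, so each p-value measures the spread between these libraries, which may be technical.

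Several of the results below turn on which transcript of a gene was counted, so the sequences where those transcripts part are given first, on GRCh38 and 5′ to 3′ along each gene, from the GENCODE 29 transcripts. EZH2 lies on the minus strand of chromosome 7. Both EZH2 sequences share the end of 1 exon in lower case (chr7:148819596-148819625). EZH2-209 then goes on, in capitals, into an added exon of 82 bases (capitals chr7:148819030-148819059) in which its reading frame ends after 18 of the 30 capitals, and EZH2-203 goes on into the next coding exon (capitals chr7:148818088-148818117).
EZH2-209: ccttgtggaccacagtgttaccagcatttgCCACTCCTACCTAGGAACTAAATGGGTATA
EZH2-203: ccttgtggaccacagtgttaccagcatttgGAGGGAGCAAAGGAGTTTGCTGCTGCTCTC
PHF19 lies on the minus strand of chromosome 9. Both PHF19 transcripts share the lower-case exon end (chr9:120869845-120869874). PHF19-201, a short transcript of 5 exons, runs on into the intron (capitals chr9:120869785-120869844), whereas PHF19-202, with 15 exons, is spliced to the next exon (capitals chr9:120869271-120869330).
PHF19-201: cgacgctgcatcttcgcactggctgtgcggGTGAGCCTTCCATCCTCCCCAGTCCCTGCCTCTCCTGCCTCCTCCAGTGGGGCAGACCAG
PHF19-202: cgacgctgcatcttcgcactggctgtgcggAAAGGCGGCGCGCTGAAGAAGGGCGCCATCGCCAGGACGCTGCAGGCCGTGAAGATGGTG
EZH1-210, annotated without a coding sequence, has 2 exons and retains the end of an EZH1 intron on the minus strand of chromosome 17, shown in capitals (chr17:42702962-42703021), before a coding exon of EZH1-202 in lower case (chr17:42702932-42702961).
EZH1-210: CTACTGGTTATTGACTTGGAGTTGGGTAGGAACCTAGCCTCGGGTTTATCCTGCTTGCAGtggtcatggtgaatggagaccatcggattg
JARID2 lies on the plus strand of chromosome 6. JARID2-201 starts at position 15246296 and JARID2-202 at position 15248855, 2559 bases downstream. The first exon of JARID2-201 holds coding bases that JARID2-202, whose reading frame opens at position 15468565, does not have. They run over chr6:15246540-15246584, with the start codon in capitals.
JARID2-201: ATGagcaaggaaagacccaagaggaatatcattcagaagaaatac
The 250 bases before 2 RefSeq starts of JARID2 (GRCh38.p14) are shown with every CG, the letters read the same on both strands, in capitals. The upstream window is chr6:15245819-15246068, and the downstream window, chr6:15248605-15248854, ends at the first base before JARID2-202.
JARID2 upstream start: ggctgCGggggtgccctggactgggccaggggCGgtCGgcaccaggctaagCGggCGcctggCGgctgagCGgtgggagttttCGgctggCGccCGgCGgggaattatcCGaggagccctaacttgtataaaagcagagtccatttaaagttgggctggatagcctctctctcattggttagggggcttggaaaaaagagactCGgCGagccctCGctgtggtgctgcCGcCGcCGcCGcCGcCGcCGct
JARID2 downstream start: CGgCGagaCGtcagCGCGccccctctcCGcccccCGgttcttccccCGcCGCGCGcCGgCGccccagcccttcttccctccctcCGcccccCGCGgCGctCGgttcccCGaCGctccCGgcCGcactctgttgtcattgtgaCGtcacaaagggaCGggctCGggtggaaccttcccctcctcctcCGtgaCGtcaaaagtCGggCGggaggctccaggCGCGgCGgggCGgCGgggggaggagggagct
The upstream window held 22 CG and the downstream window 34. Over 35116 windows of the same length before annotated starts the median was 11 CG, and 93.9% held at least 1. The 14 windows of the 10 genes held 11 to 54 CG, the fewest at EED and the most at 1 of the 2 BMI1 starts.

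Levels are given as CPM, a gene's count for every 1000000 counts of the library, and changes as log2 changes with their standard error (SE) and Benjamini-Hochberg adjusted p from edgeR's quasi-likelihood test, called where the adjusted p was under 0.05. The log2 changes also hold scaling factors between libraries (TMM), which CPM lack, so the 2 can differ in size or direction. In endoderm nucleoplasm against hPSC, total counts without TMM shifted the median gene by -0.48. Library totals were 8329295 to 15798639 counts in hPSC, 7738946 to 21298678 in ectoderm, 7899619 to 18360084 in endoderm and 4990408 to 17143491 in mesoderm. The count of a single one of the 10 genes in 1 library ran from 29 for RNF2 to 6048 for JARID2. The fraction labels did not all match the marker RNAs. The summed cytoplasmic mRNAs, 6 genes with EEF1A1 and RPLP0 among them, followed the labels in hPSC (42450 to 43090 CPM in cytoplasm against 15550 to 20700 CPM in nucleus), endoderm (39170 to 43900 against 11920 to 13260 CPM) and mesoderm (46610 to 47920 against 11880 to 14790 CPM), but overlapped in ectoderm (41490 to 43480 against 39890 to 51910 CPM). The summed nuclear RNAs (MALAT1, NEAT1, KCNQ1OT1, SNHG14 and MEG3) were at 851 to 1098 CPM in the libraries labelled nucleus against 887 to 903 CPM in those labelled cytoplasm in hPSC, and lower in nucleus than in cytoplasm in ectoderm (118 to 494 against 1409 to 2537 CPM) and endoderm (123 to 496 against 514 to 712 CPM). In mesoderm they were higher in nucleus (1269 to 1843 against 616 to 762 CPM). The endoderm sum held no NEAT1, which was not listed there, and its difference lay in SNHG14 (mean 185 CPM in nucleus against 465 in cytoplasm). Endoderm MALAT1 averaged 130 against 126 CPM, and KCNQ1OT1 (1.80 against 0.84 CPM) and MEG3 (1.055 against 0.44 CPM) were higher in nucleus. Mitochondrial RNA made up 13.1 to 15.4% of the hPSC nucleus libraries, 8.15 to 10.2% in ectoderm nucleus and 8.09 to 16.1% in endoderm nucleus, against at most 1.58% in cytoplasm of those types, and in mesoderm 1.11 to 1.36% of nucleus against 5.84 to 7.46% of cytoplasm. The 2 fractions are therefore called labelled cytoplasm and labelled nucleus where they are set against each other. Among the libraries that stood apart from their groups were hPSC chromatin replicate 3 and mesoderm chromatin replicate 3, which correlated better with their type's nucleus libraries (mean r 0.933 and 0.945) than with their own group (0.927 and 0.906), and ectoderm nucleus replicate 2 and endoderm nucleus replicate 1, with a mean r of 0.959 and 0.947 with their own group. Replicate 1 of hPSC cytoplasm was also lower with its own group (0.964) than replicates 2 (0.981) and 3 (0.976), and it enters every cytoplasm comparison against hPSC.

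Markers of the cell types were set beside the germ layer labels. Endoderm markers were all listed in endoderm (8 of 8, 453 to 613 CPM summed in cytoplasm) and not listed in hPSC or ectoderm (0 of 8). Ectoderm markers were listed as 6 of 8 in ectoderm (1144 to 1369 CPM) and 2 of 8 in hPSC (337 to 369 CPM). Of these markers, mesoderm cytoplasm averaged 56.05 CPM of OTX2, 0.996 of ZIC1 and 189 of NES, against 169.8, 0.358 and 556 in ectoderm. Endoderm cytoplasm averaged 1.79 CPM of PAX6, 32.6 of OTX2 and 228.5 of NES. SOX10, a neural crest marker, averaged 28.9 CPM in ectoderm cytoplasm, 6.06 in endoderm and 2.51 in mesoderm. Mesoderm markers were listed as 4 of 8 in mesoderm, at 134.5 to 141 CPM, of which HAND1 gave 132 CPM on average and TBXT 0.13 CPM. Endoderm listed 7 of these mesoderm markers, at 94.1 to 122 CPM summed, with HAND1 at 58.1 CPM and TBXT at 4.94 CPM on average. Trophoblast or amnion markers were listed as 5 of 5 in mesoderm (328 to 367 CPM) and 2 of 5 in endoderm (160 to 198.5 CPM) and hPSC (24.1 to 31.2 CPM), with GATA3 at 123 CPM in mesoderm and 134 CPM in endoderm. Ectoderm listed GATA3, TFAP2A, KRT7 and VTCN1, at 2.21, 3.36, 3.62 and 0.225 CPM on average in cytoplasm. Pluripotency markers summed to 6189 to 6692 CPM in hPSC cytoplasm, 4548 to 5077 CPM in endoderm, 2616 to 2734 CPM in mesoderm and 2019 to 2551 CPM in ectoderm, and POU5F1 alone averaged 2954, 1765, 892 and 6.22 CPM. On chromatin the same sum was 5110 to 5416 CPM in hPSC and 1006 to 1016 CPM in endoderm. Each sum covers listed markers only. SOX2 was not listed in endoderm, NANOG not in ectoderm, and NANOG, SOX2, TDGF1 and PRDM14 not in mesoderm. LIN28A alone averaged 1771 CPM in ectoderm cytoplasm, beside 1919 in hPSC, 2319 in endoderm and 1511 in mesoderm. These are bulk libraries, in which fewer cells of a type and less RNA per cell cannot be told apart, and the part of residual pluripotent or other cells in the results below was not tested.

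**Figure D1:**
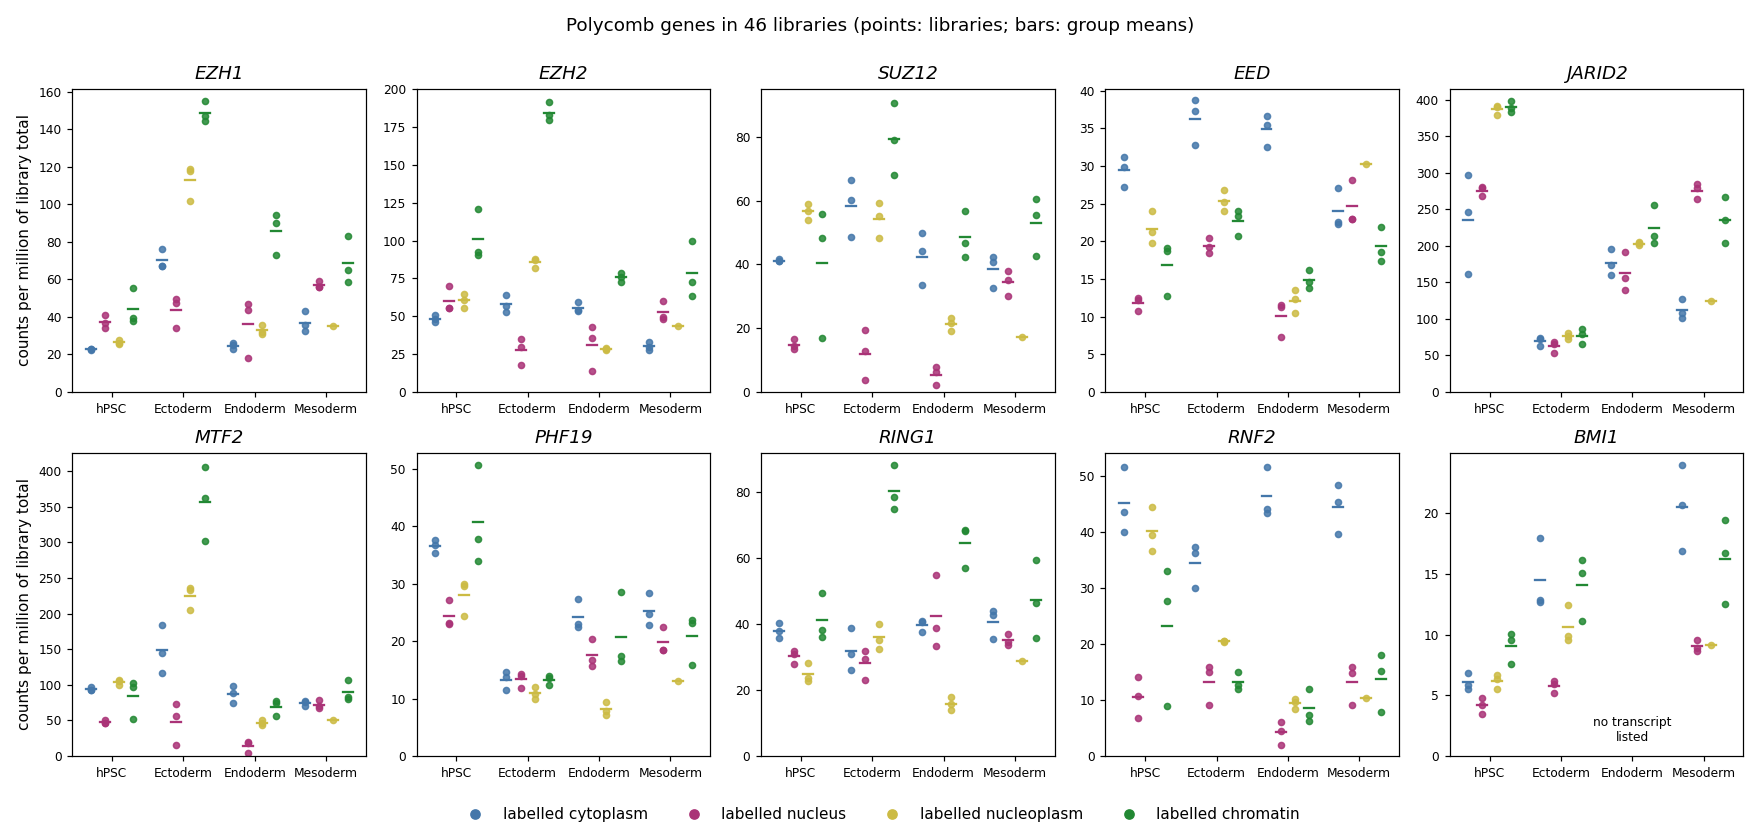
CPM for each of the 10 genes (1 panel a gene, own vertical axis), by cell type and labelled fraction. Points are libraries and bars are group means. The 12 ectoderm libraries of JARID2 sit between 52.9 and 86.1 CPM, below all libraries of hPSC, endoderm and mesoderm.

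EZH1, the paralog of EZH2 that is usually tied to slowly dividing or differentiated cells (chr17:42700275-42745049, minus strand), rose in ectoderm over hPSC in cytoplasm, nucleoplasm and chromatin, while endoderm rose in nucleoplasm and on chromatin and mesoderm in cytoplasm and on chromatin. In cytoplasm EZH1 was at 22.7, 22.5 and 22.95 CPM in hPSC and at 67.3, 67.25 and 76.2 CPM in ectoderm (log2 1.57, SE 0.11, adjusted p 4.38e-09). Nucleoplasm held 27.8, 26.02 and 25.4 CPM in hPSC and 102, 118 and 119 CPM in ectoderm (log2 2.04, SE 0.09, adjusted p 5.58e-16), and chromatin 37.6, 39.55 and 55.3 CPM in hPSC and 155, 147 and 144 CPM in ectoderm (log2 1.83, SE 0.20, adjusted p 3.68e-06). In each of these 3 fractions every ectoderm library was above every hPSC library. Mesoderm cytoplasm, at 42.9, 35.5 and 32.4 CPM, was also above hPSC (log2 0.65, SE 0.11, adjusted p 7.72e-05), whereas endoderm cytoplasm, at 25.2, 25.97 and 22.9 CPM, overlapped it (log2 -0.10, SE 0.11, adjusted p 0.448). Endoderm nucleoplasm was at 35.9, 31.15 and 31.8 CPM (log2 0.80, SE 0.09, adjusted p 3.83e-08), and endoderm chromatin at 73.2, 90.3 and 94.1 CPM (log2 1.22, SE 0.20, adjusted p 0.00016). In these 2 endoderm comparisons total counts shifted the median gene by -0.48 and -0.25, so the CPM show smaller rises than the log2 values. Mesoderm chromatin was at 64.9, 83.03 and 58.7 CPM (log2 0.81, SE 0.20, adjusted p 0.00367). In labelled nucleus none of the 3 lineages was called against hPSC, with changes of 0.27, 0.29 and 0.45 in ectoderm, endoderm and mesoderm, but endoderm was called without endoderm nucleus replicate 1 (0.50, adjusted p 0.0102). The EZH1-210 transcript shown above, which was listed in ectoderm only, made up part of the ectoderm sum. Without it, ectoderm was at 36.8, 39.2 and 36.6 CPM in cytoplasm and at 89.65, 78.6 and 80.6 CPM on chromatin, still above every hPSC library of the same fraction. No EZH1 transcript was shared by all 4 tables, so the gene could not be compared on common transcripts. On the authors' TPM the 3 ectoderm changes were 2.20, 2.61 and 2.56. The ectoderm TPM include EZH1-210, and TPM give a short transcript more weight (594 bases, against 4623 for EZH1-202). Its part in these TPM changes was not tested. Without hPSC chromatin replicate 3 the chromatin changes were 2.03 in ectoderm, 1.47 in endoderm and 1.02 in mesoderm, all called.

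EZH2, the main H3K27 methyltransferase of dividing cells (chr7:148807383-148884321, minus strand), did not move in step with its paralog. In cytoplasm it was at 48.02, 46.3 and 50.75 CPM in hPSC, 64.3, 52.9 and 56.5 CPM in ectoderm and 59.6, 54.0 and 53.2 CPM in endoderm, and neither difference was called (log2 0.20, SE 0.09, adjusted p 0.0533 for ectoderm and log2 -0.02, SE 0.09, adjusted p 0.864 for endoderm). Mesoderm cytoplasm was lower than every hPSC library, at 32.95, 29.75 and 27.6 CPM (log2 -0.73, SE 0.09, adjusted p 4.93e-06). On chromatin EZH2 was at 92.7, 90.6 and 121 CPM in hPSC and at 191, 179 and 183 CPM in ectoderm (log2 0.94, SE 0.17, adjusted p 0.000328), while endoderm chromatin held 72.3, 78.9 and 75.65 CPM and mesoderm chromatin 99.8, 72.4 and 63.6 CPM, neither called. Without hPSC chromatin replicate 3 the ectoderm chromatin change was 1.09. In nucleoplasm it rose in ectoderm, from 60.96, 64.65 and 55.65 to 88.02, 87.2 and 82.0 CPM (log2 0.45, SE 0.08, adjusted p 3.34e-05), and fell in endoderm, to 27.8, 29.2 and 28.6 CPM (log2 -0.60, SE 0.09, adjusted p 1.48e-06). In labelled nucleus ectoderm fell, at 29.85, 17.98 and 34.9 CPM against 55.5, 70.2 and 55.3 CPM (log2 -1.10, SE 0.26, adjusted p 0.00235), and endoderm did too, at 13.8, 42.9 and 35.6 CPM (log2 -0.65, SE 0.26, adjusted p 0.0435), although that call ended without endoderm nucleus replicate 1 (log2 -0.40) or any 1 of the hPSC nucleus libraries (log2 -0.51 to -0.73) or endoderm nucleus replicate 3 (log2 -0.71). The ectoderm rises were not kept on transcripts present in all 4 tables, a setting that drops the counts of all other listed transcripts. There EZH2 in ectoderm was at log2 -1.18 in nucleoplasm and -0.68 on chromatin, and at -1.53 in cytoplasm. The part of the dropped transcripts in the rises was not tested. On the transcripts in all 4 tables the mesoderm cytoplasm change was -0.71 and no longer called. On the authors' TPM that change was -0.32, and ectoderm was at -0.08 in nucleoplasm and 0.43 on chromatin, none of them called. On TPM mesoderm nucleus (0.93) and endoderm cytoplasm (0.53) were both called higher. In CPM too every endoderm cytoplasm library lay above every hPSC library, in a comparison where total counts shifted the median gene by 0.22. The summed level of 14 proliferation genes, given because EZH2 is a proliferation-linked gene, was 3550 to 3984 CPM in hPSC cytoplasm, 3038 to 3358 CPM in endoderm, 2043 to 2364 CPM in ectoderm and 1863 to 2103 CPM in mesoderm, and its part in the EZH2 values was not tested.

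**Figure D2:**
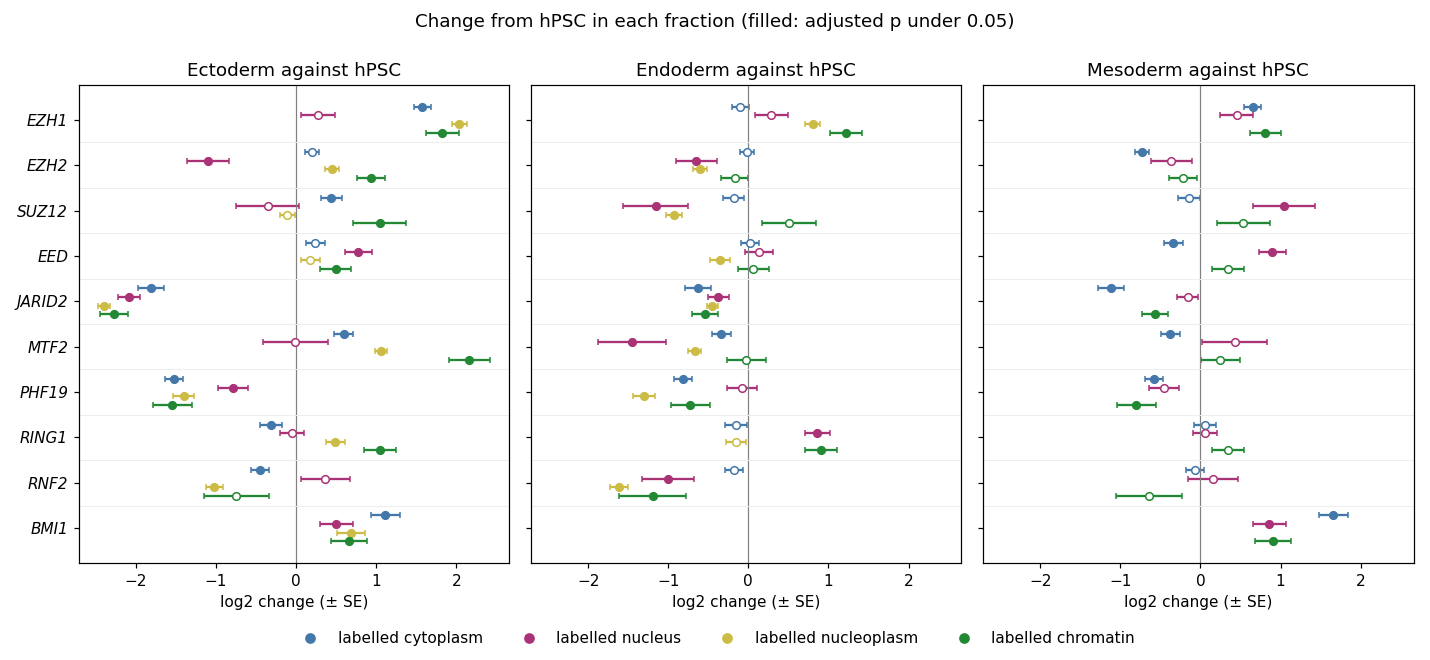
Log2 change of each gene in ectoderm, endoderm and mesoderm (1 panel each) against hPSC, by labelled fraction, from edgeR. Bars are SE, and filled points had an adjusted p under 0.05. EZH1 lies to the positive side and JARID2 and PHF19 to the negative side in ectoderm.

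SUZ12, the scaffold that holds PRC2 together (chr17:31937018-32001045, plus strand), was not called in the cytoplasm of endoderm or mesoderm. It was at 40.9, 41.7 and 41.0 CPM in hPSC, 44.1, 49.7 and 33.4 CPM in endoderm (log2 -0.18, SE 0.13, adjusted p 0.256) and 42.3, 40.8 and 32.6 CPM in mesoderm (log2 -0.14, SE 0.13, adjusted p 0.348), and rose to 66.3, 48.7 and 60.1 CPM in ectoderm (log2 0.44, SE 0.13, adjusted p 0.00753). Ectoderm chromatin, at 79.05, 90.7 and 68.2 CPM, was above hPSC chromatin, at 48.4, 55.9 and 16.9 CPM (log2 1.04, SE 0.33, adjusted p 0.0149). The third hPSC value is the library that stands apart: without it the ectoderm change was 0.69, and without ectoderm chromatin replicate 2 it was 0.88 and not called. Endoderm nucleoplasm fell, at 23.1, 19.3 and 21.7 CPM against 54.03, 59.02 and 56.8 CPM (log2 -0.93, SE 0.10, adjusted p 1.54e-08). In labelled nucleus SUZ12 was at 13.6, 16.7 and 14.3 CPM in hPSC, 2.15, 7.71 and 6.15 CPM in endoderm and 29.95, 38.03 and 35.1 CPM in mesoderm. Both differences from hPSC were called (log2 -1.16, SE 0.41, adjusted p 0.0262 for endoderm and log2 1.04, SE 0.39, adjusted p 0.0355 for mesoderm). The mesoderm call ended when any 1 of its 6 libraries was left out (log2 0.96 to 1.15), and the endoderm call ended without endoderm nucleus replicate 1 (-0.88) or 3 (-1.21) or hPSC nucleus replicate 2 (-1.05) or 3 (-1.15). Total counts (1.21) ended the mesoderm call too, and transcripts in all 4 tables both (0.67 in mesoderm and -1.17 in endoderm).

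EED, the subunit that reads trimethylated H3K27 (chr11:86244544-86278813, plus strand), was, in cytoplasm, at 29.9, 31.2 and 27.3 CPM in hPSC, 37.3, 32.8 and 38.7 CPM in ectoderm and 35.4, 32.5 and 36.7 CPM in endoderm, with neither difference called (log2 0.24, SE 0.12, adjusted p 0.0718, and log2 0.02, SE 0.12, adjusted p 0.879). Mesoderm cytoplasm, at 22.5, 27.1 and 22.3 CPM, was lower (log2 -0.34, SE 0.12, adjusted p 0.0186), and this call ended without hPSC cytoplasm replicate 2 (-0.28) or mesoderm cytoplasm replicate 3 (-0.32). In labelled nucleus EED rose in ectoderm and mesoderm: it was at 12.5, 10.8 and 12.2 CPM in hPSC, 20.4, 18.45 and 19.2 CPM in ectoderm (log2 0.78, SE 0.17, adjusted p 0.00123) and 22.9, 28.1 and 22.99 CPM in mesoderm (log2 0.90, SE 0.17, adjusted p 0.000524). Every library of both lineages was above every hPSC library. On the authors' TPM the ectoderm nucleus change was 0.43 and not called. The mesoderm cytoplasm change on TPM was -0.14 and not called. Ectoderm chromatin (log2 0.49, SE 0.19, adjusted p 0.0374) was not called on total counts (0.42) or without hPSC chromatin replicate 3 (0.35) or ectoderm chromatin replicate 2 (0.40) or 3 (0.50), and endoderm nucleoplasm (log2 -0.36, SE 0.12, adjusted p 0.0111) was not called without hPSC nucleoplasm replicate 3 (-0.29) or endoderm nucleoplasm replicate 1 (-0.25).

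JARID2, an accessory subunit that binds nucleosomes and helps to bring PRC2 to its targets (chr6:15246296-15522040, plus strand), fell in ectoderm in all 4 fractions. In cytoplasm it was at 161, 247 and 297 CPM in hPSC and 72.2, 63.3 and 73.3 CPM in ectoderm (log2 -1.81, SE 0.16, adjusted p 9.73e-08). Nucleoplasm held 379.5, 391.5 and 389.9 CPM in hPSC and 76.2, 80.8 and 72.3 CPM in ectoderm (log2 -2.40, SE 0.07, adjusted p 2.13e-19), and chromatin 383, 389 and 398 CPM in hPSC and 79.2, 65.9 and 86.1 CPM in ectoderm (log2 -2.27, SE 0.17, adjusted p 1.1e-07). In labelled nucleus the values were 279.9, 279 and 268 CPM in hPSC and 66.2, 52.9 and 68.3 CPM in ectoderm (log2 -2.09, SE 0.14, adjusted p 3.37e-08). No ectoderm library reached any hPSC library, and these 4 calls were kept under every alternative that gave a value. No JARID2 transcript was shared by all 4 tables, so the gene has no value on transcripts common to all of them. JARID2-201 was listed in hPSC, ectoderm and endoderm, but it was not tested alone between these types. Endoderm fell to 203, 205 and 200.5 CPM in nucleoplasm (log2 -0.45, SE 0.06, adjusted p 1.15e-06) and 214, 255.5 and 204 CPM on chromatin (log2 -0.55, SE 0.16, adjusted p 0.01), the latter not called without endoderm chromatin replicate 3 (-0.50). Endoderm cytoplasm was at 160.4, 196 and 174 CPM (log2 -0.63, SE 0.16, adjusted p 0.00351) and overlapped hPSC, whose replicate 1 was low, and it was not called on total counts (-0.41) or on the authors' TPM (-0.17). Endoderm labelled nucleus was at 139, 157 and 191 CPM (log2 -0.37, SE 0.13, adjusted p 0.0273), a call that ended without endoderm nucleus replicate 2 (-0.28) or any 1 of the hPSC nucleus libraries (-0.35 to -0.38). Mesoderm cytoplasm fell to 127, 108.5 and 101 CPM (log2 -1.12, SE 0.16, adjusted p 2.14e-05) and mesoderm chromatin to 204, 266 and 236 CPM (log2 -0.57, SE 0.16, adjusted p 0.00957), whereas mesoderm labelled nucleus, at 264, 284 and 278.5 CPM, overlapped hPSC (log2 -0.16, SE 0.13, adjusted p 0.321). On the authors' TPM mesoderm chromatin was at -0.24, not called, and mesoderm labelled nucleus at 0.88.

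PHF19, a Polycomb-like accessory subunit that binds methylated H3K36 (chr9:120855652-120894896, minus strand), also fell in ectoderm in all 4 fractions. In cytoplasm it was at 37.7, 35.3 and 36.7 CPM in hPSC, 14.65, 11.4 and 13.7 CPM in ectoderm (log2 -1.52, SE 0.12, adjusted p 1.53e-08), 22.5, 22.9 and 27.4 CPM in endoderm (log2 -0.81, SE 0.11, adjusted p 2.51e-05) and 28.5, 22.9 and 24.65 CPM in mesoderm (log2 -0.58, SE 0.11, adjusted p 0.000337). The libraries of the 3 lineages all lay below those of hPSC. In ectoderm it was at 9.95, 10.9 and 11.9 CPM in nucleoplasm against 29.96, 24.4 and 29.6 CPM in hPSC (log2 -1.41, SE 0.13, adjusted p 9.35e-10), and at 13.9, 12.4 and 13.6 CPM on chromatin against 33.9, 37.7 and 50.7 CPM (log2 -1.54, SE 0.24, adjusted p 9.7e-05). Ectoderm labelled nucleus was at 13.96, 14.3 and 11.9 CPM against 27.15, 23.1 and 23.02 CPM (log2 -0.79, SE 0.19, adjusted p 0.00272). The lowest level of all was in endoderm nucleoplasm, at 7.11, 7.86 and 9.38 CPM (log2 -1.30, SE 0.14, adjusted p 6.39e-09). Chromatin was called lower in endoderm (log2 -0.72, SE 0.24, adjusted p 0.0183) and mesoderm (log2 -0.80, SE 0.24, adjusted p 0.013), but neither was called without hPSC chromatin replicate 3 (-0.48 and -0.60), and the endoderm call also ended without endoderm chromatin replicate 1 (-0.58) or 3 (-0.64). On the authors' TPM the endoderm and mesoderm cytoplasm changes shrank to -0.39 and -0.23 and were not called.

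MTF2, the second Polycomb-like subunit, which binds CpG-rich DNA (chr1:93079235-93139081, plus strand), rose in 3 fractions of ectoderm. It rose in cytoplasm, from 96.4, 92.3 and 93.1 CPM in hPSC to 184, 117 and 145 CPM (log2 0.60, SE 0.12, adjusted p 0.000321), in nucleoplasm, from 106, 99.5 and 105 to 236, 233 and 205 CPM (log2 1.06, SE 0.07, adjusted p 3.43e-12), and on chromatin, from 97.2, 102 and 52.45 to 362.5, 406 and 302 CPM (log2 2.16, SE 0.25, adjusted p 6.59e-06). The ectoderm and hPSC libraries did not overlap in any of the 3 fractions, and the chromatin change was 1.93 without hPSC chromatin replicate 3. On transcripts present in all 4 tables the changes were 0.06 in cytoplasm, which was not called, 0.29 in nucleoplasm and 1.49 on chromatin. Endoderm fell in nucleoplasm, to 50.1, 43.2 and 46.4 CPM (log2 -0.67, SE 0.08, adjusted p 3.88e-08), and in labelled nucleus, to 4.16, 20.2 and 18.3 CPM against 46.6, 50.35 and 46.4 CPM (log2 -1.45, SE 0.43, adjusted p 0.0102), a change of -1.09 without endoderm nucleus replicate 1. In cytoplasm endoderm was at 87.85, 97.9 and 74.4 CPM (log2 -0.34, SE 0.12, adjusted p 0.025) and mesoderm at 77.6, 76.1 and 70.4 CPM (log2 -0.38, SE 0.12, adjusted p 0.0118). Both calls ended on total counts (-0.11 and -0.33), on the authors' TPM (-0.03 and -0.15) and on transcripts in all 4 tables (-0.17 and -0.16), and the endoderm call ended without hPSC cytoplasm replicate 2 (-0.34) or endoderm cytoplasm replicate 1 (-0.29) or 3 (-0.25).

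RING1 and RNF2 are the alternative E3 ligases of PRC1. RING1 (chr6:33208495-33212722, plus strand) was, in cytoplasm, at 40.3, 37.96 and 35.8 CPM in hPSC, 30.9, 25.97 and 38.65 CPM in ectoderm, 40.85, 37.6 and 40.6 CPM in endoderm and 35.4, 43.8 and 42.6 CPM in mesoderm. The ectoderm difference was called (log2 -0.32, SE 0.14, adjusted p 0.0472) but ended without hPSC cytoplasm replicate 1 (-0.27) or 2 (-0.30) or ectoderm cytoplasm replicate 1 (-0.26) or 2 (-0.24). The ectoderm call also ended on total counts (-0.25) and on the authors' TPM (-0.29). On chromatin RING1 was at 35.95, 38.3 and 49.3 CPM in hPSC and rose to 78.4, 88.2 and 74.7 CPM in ectoderm (log2 1.04, SE 0.20, adjusted p 0.00043) and 68.2, 57.1 and 68.6 CPM in endoderm (log2 0.90, SE 0.20, adjusted p 0.00143). Mesoderm chromatin, at 59.5, 46.3 and 35.7 CPM, overlapped hPSC (log2 0.35, SE 0.20, adjusted p 0.156), and was called without mesoderm chromatin replicate 3 (0.53, adjusted p 0.0208). Ectoderm nucleoplasm rose too, to 35.25, 32.6 and 40.1 CPM from 23.5, 28.2 and 22.8 CPM (log2 0.49, SE 0.12, adjusted p 0.000555), as did endoderm labelled nucleus, at 33.3, 54.9 and 38.8 CPM against 31.9, 27.9 and 30.95 CPM (log2 0.86, SE 0.15, adjusted p 0.000327). The setting of transcripts in all 4 tables leaves out ECT.8299.2, which has no Ensembl identifier. There ectoderm RING1 was at 0.03 on chromatin and -0.66 in nucleoplasm. The part of ECT.8299.2 in the ectoderm rises was not tested. On the authors' TPM the ectoderm nucleoplasm change was 0.20 and not called. Without hPSC chromatin replicate 3 the chromatin changes were 1.20 in ectoderm and 1.12 in endoderm. The endoderm nucleus call ended on total counts (0.48) and on the authors' TPM (0.45).

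RNF2 (chr1:185045364-185102608, plus strand), the ligase most used in embryonic stem cells, was lower in the nucleoplasm of both lineages tested there. It was at 39.4, 36.7 and 44.55 CPM in hPSC, 20.6, 20.5 and 20.4 CPM in ectoderm (log2 -1.02, SE 0.11, adjusted p 4.58e-09) and 8.37, 9.735 and 10.1 CPM in endoderm (log2 -1.61, SE 0.11, adjusted p 5.21e-12), with no overlap. In cytoplasm hPSC was at 40.1, 43.6 and 51.7 CPM and ectoderm at 37.3, 29.96 and 36.4 CPM (log2 -0.45, SE 0.11, adjusted p 0.00184), while endoderm, at 44.1, 51.75 and 43.4 CPM, and mesoderm, at 48.4, 45.4 and 39.7 CPM, were not called (-0.18 and -0.07). The ectoderm cytoplasm change was -0.22 on the authors' TPM and not called. Chromatin held 27.8, 33.2 and 8.885 CPM in hPSC, where replicate 3 was far below the other two, and 11.9, 6.20 and 7.40 CPM in endoderm (log2 -1.20, SE 0.42, adjusted p 0.0238). That call ended without hPSC chromatin replicate 1 (-0.99) or 2 (-0.81) or endoderm chromatin replicate 2 (-1.02) or 3 (-1.11), and without hPSC chromatin replicate 3 the change was -1.51. Ectoderm chromatin, at 12.7, 14.95 and 11.96 CPM, and mesoderm chromatin, at 15.2, 7.87 and 17.98 CPM, were not called (-0.75 and -0.64), but both were without hPSC chromatin replicate 3 (-1.11 and -1.01). Endoderm labelled nucleus had the lowest values, 1.95, 6.12 and 4.55 CPM against 14.2, 6.88 and 10.8 CPM in hPSC (log2 -0.999, SE 0.32, adjusted p 0.0173), a call lost without hPSC nucleus replicate 1 (-0.76) or 3 (-0.96) or endoderm nucleus replicate 1 (-0.77). On transcripts in all 4 tables the endoderm changes were -0.86 on chromatin and -0.87 in labelled nucleus, neither called.

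BMI1 (chr10:22321211-22331484, plus strand), the PCGF partner known for silencing the CDKN2A locus, was tested in a fit of the 3 tables that list it. It was called higher in the 4 fractions of ectoderm and the 3 of mesoderm that were tested, though in ectoderm labelled nucleus and chromatin the call depended on single libraries and on the scaling. In cytoplasm it was at 5.52, 5.88 and 6.83 CPM in hPSC, 17.95, 12.8 and 12.7 CPM in ectoderm (log2 1.11, SE 0.18, adjusted p 9.79e-05) and 20.7, 23.97 and 16.9 CPM in mesoderm (log2 1.66, SE 0.18, adjusted p 4.88e-06). Chromatin held 9.56, 10.03 and 7.56 CPM in hPSC, 16.15, 15.1 and 11.1 CPM in ectoderm (log2 0.66, SE 0.22, adjusted p 0.024) and 19.4, 12.55 and 16.7 CPM in mesoderm (log2 0.90, SE 0.23, adjusted p 0.00653). In labelled nucleus hPSC was at 4.80, 4.21 and 3.49 CPM, ectoderm at 6.20, 5.21 and 5.89 CPM (log2 0.50, SE 0.20, adjusted p 0.0442) and mesoderm at 9.59, 8.64 and 8.94 CPM (log2 0.86, SE 0.20, adjusted p 0.00263). Ectoderm nucleoplasm was at 12.4, 9.56 and 9.91 CPM against 6.375, 5.56 and 6.69 CPM (log2 0.69, SE 0.18, adjusted p 0.00189). In each of these 7 comparisons the BMI1 lineage libraries lay above those of hPSC. The ectoderm nucleus call ended without hPSC nucleus replicate 2 (0.53) or 3 (0.40) or ectoderm nucleus replicate 2 (0.49) or 3 (0.51), on total counts (0.46) and with the replicate block (0.51), and on the authors' TPM the change turned to -0.0956, with means of 2.08 TPM in ectoderm and 2.29 TPM in hPSC. The ectoderm chromatin call ended without hPSC chromatin replicate 1 (0.70) or 3 (0.56) or ectoderm chromatin replicate 1 (0.59) or 2 (0.57) and on the authors' TPM (0.46). The other 5 calls were kept under these alternatives. In that fit 75.5, 66.2, 61.0 and 79.1% of all genes were called in ectoderm cytoplasm, nucleus, chromatin and nucleoplasm, and 67.6, 64.3 and 52.4% in mesoderm cytoplasm, nucleus and chromatin.

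The counts over the 9 genes of the main fit are read beside the share of all genes called in the same comparison, which was high throughout. In cytoplasm 7 of 9 were called in ectoderm (3 higher, 4 lower, median log2 0.20), where 76.1% of the 10672 genes tested were called. In endoderm 3 of 9 were called, all lower, against 59.7% of all genes, and in mesoderm 6 of 9 (1 higher, 5 lower) against 68.1%. On chromatin the counts were 8 of 9 in ectoderm (6 higher, 2 lower, median 0.94) against 62.5% of all genes, 5 of 9 in endoderm against 61.9% and 3 of 9 in mesoderm against 54.3%. In nucleoplasm they were 7 of 9 in ectoderm against 79.6%, and 8 of 9 in endoderm (1 higher, 7 lower, median -0.60) against 77.1%. In labelled nucleus they were 4 of 9 in ectoderm against 57.7%, 6 of 9 in endoderm against 57.0% and 2 of 9 in mesoderm against 54.0%. The mesoderm nucleus count was 8 on the authors' TPM. Complete separation of the libraries, named above for single genes, was common: the groups did not overlap for 74.3, 68.0, 72.6 and 79.9% of all genes in ectoderm cytoplasm, nucleus, chromatin and nucleoplasm, for 61.0, 66.5, 69.6 and 84.2% in endoderm, and for 69.0, 71.9 and 55.2% in mesoderm cytoplasm, nucleus and chromatin. All of these comparisons share their hPSC libraries, so they do not stand apart from one another.

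Within a cell type, RNF2 and EED RNA stood lower on chromatin than in labelled cytoplasm, and EZH1 and EZH2 RNA higher, in all 4 cell types. RNF2 was at 11.9, 6.20 and 7.40 CPM on chromatin and 44.1, 51.75 and 43.4 CPM in cytoplasm of endoderm (log2 -2.27, SE 0.26, adjusted p 1.54e-06), and at 15.2, 7.87 and 17.98 CPM and 48.4, 45.4 and 39.7 CPM in mesoderm (log2 -1.90, SE 0.27, adjusted p 9.38e-05). The changes in ectoderm and hPSC were -1.69 and -1.10, the latter not called on the authors' TPM (-0.35). EED differed by -0.95, -0.99, -1.07 and -0.50 in hPSC, ectoderm, endoderm and mesoderm. Its call ended in mesoderm without mesoderm cytoplasm replicate 2 (-0.39), and on the authors' TPM hPSC was at -0.07, not called, and the sign turned in ectoderm (0.12) and mesoderm (0.65). EZH1 differed by 0.81, 0.76, 1.95 and 0.72, and EZH2 by 0.92, 1.36, 0.60 and 1.20, in the same order of types. The endoderm EZH2 call ended without endoderm chromatin replicate 2 (0.55) or endoderm cytoplasm replicate 3 (0.57). RING1 was higher on chromatin in ectoderm (log2 1.03, SE 0.14, adjusted p 3.21e-05) and endoderm (log2 0.86, SE 0.15, adjusted p 0.000135) but at -0.03 and 0.02 in hPSC and mesoderm. JARID2 was higher on chromatin in hPSC (0.59), endoderm (0.50) and mesoderm (0.89) and at -0.17, not called, in ectoderm. MTF2 was called in ectoderm (log2 0.96, SE 0.32, adjusted p 0.0191), a call that ended without ectoderm cytoplasm replicate 2 (0.86), and on the authors' TPM it was also called higher on chromatin in hPSC (0.52, adjusted p 0.0248) and mesoderm (1.25). SUZ12 was not called in any type, but was called higher on mesoderm chromatin without mesoderm chromatin replicate 3 (0.37, adjusted p 0.0238). BMI1 was called higher on chromatin in hPSC (0.43) and lower in mesoderm (-0.54), and PHF19 lower in mesoderm (-0.46). The hPSC BMI1 call ended without hPSC chromatin replicate 1 (0.37) or 2 (0.36) or any 1 of the hPSC cytoplasm libraries (0.39 to 0.49), the mesoderm one without chromatin replicate 2 (-0.40) or cytoplasm replicate 2 (-0.39), and the PHF19 one without chromatin replicate 3 (-0.32) or any 1 of the cytoplasm libraries (-0.45 to -0.52). With the authors' TPM mesoderm BMI1 turned to a call in the opposite direction (0.57, adjusted p 0.0322), ectoderm BMI1 (0.66) and JARID2 (0.87) and hPSC RING1 (0.82) were called higher on chromatin, and mesoderm PHF19 was at -0.17, not called. Total counts ended the calls for endoderm EZH2 (0.44) and for mesoderm EED (-0.31), PHF19 (-0.28) and BMI1 (-0.35). In hPSC, ectoderm and mesoderm 6, 6 and 7 of the 10 genes were called, beside 63.5, 60.8 and 66.4% of all genes, and in endoderm 6 of 9, beside 73.0%. The libraries of the 2 fractions did not overlap for 65.4, 70.1, 68.1 and 79.7% of all genes in hPSC, ectoderm, mesoderm and endoderm.

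Chromatin was also set against nucleoplasm, the other nuclear compartment, in the 3 types with 3 nucleoplasm libraries. RING1 was higher on chromatin in each: 68.2, 57.1 and 68.6 CPM against 15.8, 17.9 and 13.96 CPM in endoderm (log2 1.44, SE 0.16, adjusted p 2.66e-06), 78.4, 88.2 and 74.7 CPM against 35.25, 32.6 and 40.1 CPM in ectoderm (log2 0.87, SE 0.14, adjusted p 0.000346), and a change of 0.49 in hPSC. RNF2 was lower on chromatin in each, by -1.02, -0.92 and -0.71 in hPSC, ectoderm and endoderm. In endoderm the RNF2 libraries of the 2 fractions overlapped, at 11.9, 6.20 and 7.40 CPM on chromatin and 8.37, 9.735 and 10.1 CPM in nucleoplasm, and the change on total counts was -0.13 and not called, where that scaling shifted the median gene by 0.58. Total counts gave -0.79 in hPSC, not called, and the authors' TPM gave -0.59, -0.17 and -0.10 in hPSC, ectoderm and endoderm, none called. EZH2 was higher on chromatin in each, by 0.51, 0.82 and 0.82. The hPSC calls are the weakest: RNF2, EZH1 and MTF2 were not called when any 1 of the nucleoplasm libraries was left out (RNF2 -1.03 to -1.07, EZH1 0.40 to 0.55, MTF2 -0.51 to -0.62), RING1 and EZH2 not without nucleoplasm replicate 1 (0.46 and 0.52) or 3 (0.36 and 0.38), and EZH1 and RING1 not without hPSC chromatin replicate 3 (0.31 and 0.35). In endoderm the RNF2 call ended without nucleoplasm replicate 2 (-0.69) or 3 (-0.65) or chromatin replicate 2 (-0.55) or 3 (-0.60), SUZ12 (0.61) ended without any 1 of 5 libraries (0.48 to 0.66), and PHF19 (0.77) without chromatin replicate 2 (0.47). JARID2 was lower on chromatin in ectoderm (-0.28) and endoderm (-0.43), but on total counts it was at 0.01 and 0.15, and the calls ended when any 1 of 5 ectoderm libraries (-0.12 to -0.28) or 5 endoderm libraries (-0.36 to -0.44) was left out. EED was lower in hPSC (-0.59) and ectoderm (-0.45), the latter not called without ectoderm chromatin replicate 1 (-0.30) or 3 (-0.37). Neither EED call held on total counts (-0.36 and -0.16) or on the authors' TPM (-0.03 and 0.30), and hPSC MTF2 was at -0.30 and -0.03 under the same settings, not called. In hPSC 6 of the 10 genes were called and in ectoderm 5, beside 30.5 and 44.1% of all genes, and in endoderm 7 of 9, beside 53.5%. SUZ12, not called in hPSC (-0.72), was called without hPSC chromatin replicate 3 (-0.35). The hPSC count was 1 when only the 2 groups entered the fit. For 54.3, 59.9 and 71.2% of all genes the 2 fractions' libraries did not overlap.

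**Figure D3:**
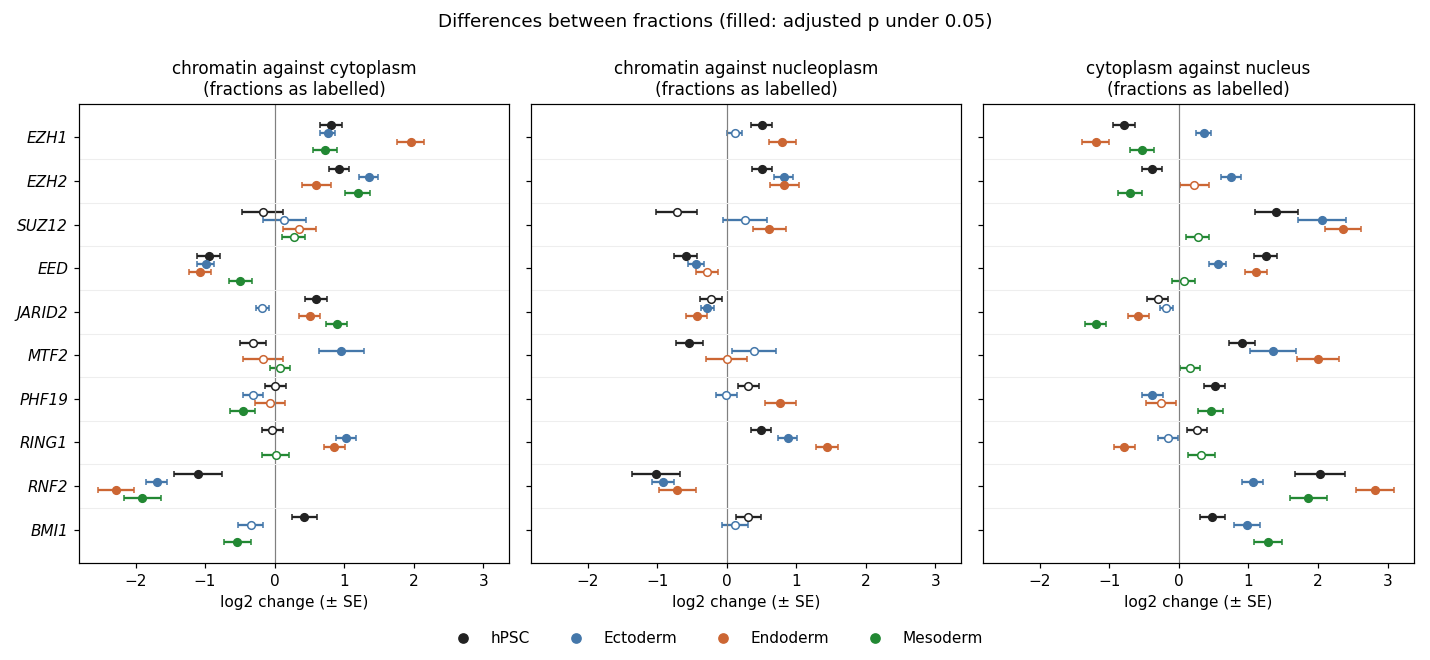
Log2 change of each gene between fractions within a cell type, from edgeR: chromatin against cytoplasm, chromatin against nucleoplasm, and labelled cytoplasm against labelled nucleus (1 panel each). Colours are cell types, bars are SE, and filled points had an adjusted p under 0.05. RNF2 lies on the chromatin-poor side and EZH2 on the chromatin-rich side in both chromatin panels.

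Between labelled cytoplasm and labelled nucleus, RNF2 was higher in cytoplasm in all 4 types. It was at 40.1, 43.6 and 51.7 CPM against 14.2, 6.88 and 10.8 CPM in hPSC (log2 2.02, SE 0.36, adjusted p 0.000238), at 44.1, 51.75 and 43.4 CPM against 1.95, 6.12 and 4.55 CPM in endoderm (log2 2.82, SE 0.27, adjusted p 2.99e-07), and differed by 1.06 in ectoderm and 1.86 in mesoderm. SUZ12, MTF2 and EED were higher in cytoplasm in hPSC, ectoderm and endoderm, SUZ12 by 1.40, 2.06 and 2.35, MTF2 by 0.91, 1.36 and 1.999, and EED by 1.25, 0.56 and 1.11. In mesoderm mitochondrial RNA lay the other way round between these 2 fractions, and the summed nuclear RNAs were higher in labelled nucleus. SUZ12, MTF2 and EED were at 0.27, 0.16 and 0.07 in mesoderm and were not called. There the authors' TPM gave calls in the opposite direction for SUZ12 (-0.82), MTF2 (-0.98), EED (-1.05) and RING1 (-0.82). EZH1 was lower in cytoplasm in hPSC (-0.79), endoderm (-1.20) and mesoderm (-0.53) and higher in ectoderm (log2 0.36, SE 0.11, adjusted p 0.0143). EZH2 was likewise lower in hPSC (-0.39) and mesoderm (-0.70) and higher in ectoderm (log2 0.75, SE 0.14, adjusted p 0.000656). The hPSC EZH2 call ended without hPSC nucleus replicate 2 (-0.25) or hPSC cytoplasm replicate 2 (-0.36) or 3 (-0.40), and the mesoderm EZH1 call without mesoderm nucleus replicate 1 (-0.46) or mesoderm cytoplasm replicate 2 (-0.51) or 3 (-0.47). BMI1 was higher in cytoplasm in hPSC (0.48), ectoderm (0.97) and mesoderm (1.28), JARID2 lower in endoderm (-0.58) and mesoderm (-1.20), RING1 lower in endoderm (-0.78), and PHF19 higher in hPSC (0.51) and mesoderm (0.46) and lower in ectoderm (-0.38). Of these, the hPSC BMI1 call ended without nucleus replicate 2 (0.51) or 3 (0.38) or cytoplasm replicate 2 (0.50) or 3 (0.42), the ectoderm PHF19 call without nucleus replicate 2 (-0.14) or any 1 of the cytoplasm libraries (-0.34 to -0.36), and the mesoderm PHF19 call when any 1 of the 6 libraries was left out (0.41 to 0.53). In hPSC, ectoderm and mesoderm 8, 8 and 6 of the 10 genes were called, beside 65.4, 53.7 and 63.3% of all genes, and in endoderm 7 of 9, beside 69.8%. For 71.5, 57.7, 74.8 and 75.7% of all genes in hPSC, ectoderm, mesoderm and endoderm the 2 fractions' libraries did not overlap. In 19 of the 25 comparisons of this study, total counts shifted the median gene by over 0.1 against the TMM scaling used here, from -0.48 to 0.69, the highest between endoderm cytoplasm and nucleus, where JARID2 turned from -0.58 to 0.12, and RING1 (-0.09) and EZH1 (-0.55) were no longer called. The endoderm RING1 libraries of the 2 fractions overlapped, at 40.85, 37.6 and 40.6 CPM in cytoplasm and 33.3, 54.9 and 38.8 CPM in nucleus. Also lost were the hPSC EZH2 (-0.32) and mesoderm PHF19 (0.35) calls on total counts, the ectoderm PHF19 call on both (-0.01 on total counts and -0.01 on TPM), and on the authors' TPM the hPSC MTF2 (0.45) and BMI1 (0.06) calls, the endoderm JARID2 call (-0.27), where PHF19 was called higher in cytoplasm (0.62), and the mesoderm RNF2 (0.68), PHF19 (0.19) and BMI1 (0.09) calls.

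The ratio of the paralogs' counts within a library does not depend on library size, and it was compared between groups as a description only, since the 2 genes differ in length. The count of EZH1 over that of EZH2 in cytoplasm had a median of 0.4725 (range 0.452 to 0.485) in hPSC, 0.431 (range 0.422 to 0.481) in endoderm, 1.19 (range 1.17 to 1.30) in mesoderm and 1.27 (range 1.05 to 1.35) in ectoderm. Endoderm overlapped hPSC, and the other two lay above both. On chromatin the medians were 0.437 (range 0.406 to 0.458) in hPSC, 0.809 (range 0.791 to 0.821) in ectoderm, 0.923 (range 0.651 to 1.15) in mesoderm and 1.14 (range 1.01 to 1.24) in endoderm, so there every lineage lay above hPSC. The ectoderm ratios count EZH1-210, a transcript listed in ectoderm only. Without it ectoderm EZH1 was at 78.6 to 89.65 CPM on chromatin, beside EZH2 at 179 to 191 CPM. In ectoderm cytoplasm EZH1 without it was at 36.65 to 39.2 CPM, below EZH2 at 52.9 to 64.3 CPM. The part of the assemblies in these ratios was not tested. RNF2 over RING1 had cytoplasm medians between 1.04 and 1.15 in the 4 types. On chromatin it was 0.773 (range 0.180 to 0.865) in hPSC, 0.256 (range 0.170 to 0.504) in mesoderm, 0.163 (range 0.160 to 0.1695) in ectoderm and 0.109 (range 0.108 to 0.175) in endoderm. The lowest hPSC value is replicate 3, the library that stood apart.

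**Figure D4:**
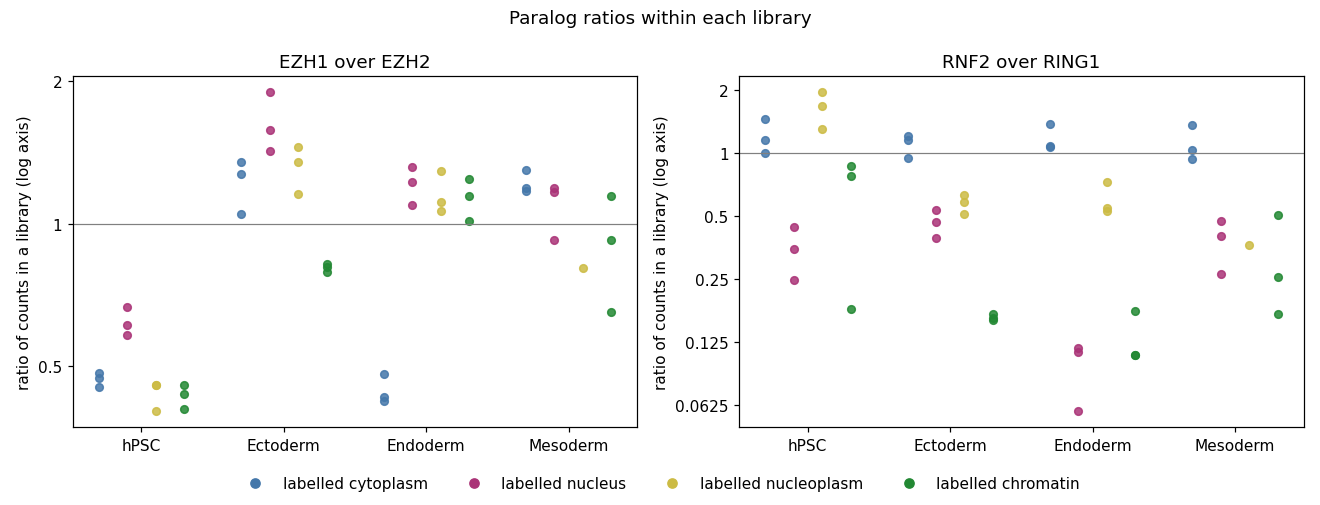
Count of EZH1 over EZH2 and of RNF2 over RING1 in each library (log axis), by cell type and labelled fraction. Points are libraries, and the grey line marks equal counts. In cytoplasm the EZH1 over EZH2 ratio sits below 0.5 in hPSC and endoderm and above 1 in ectoderm and mesoderm.

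Single transcripts moved in ways the gene sums do not show. In hPSC, EZH2-203, a protein-coding transcript, was at 31.2, 23.99 and 26.01 CPM in labelled cytoplasm and 10.9, 16.6 and 14.02 CPM in labelled nucleus (log2 0.93, SE 0.20, adjusted p 0.00453). Of the other EZH2 transcripts, ESC.6654.3 went the opposite way, at 4.80, 2.81 and 4.58 CPM in cytoplasm against 15.05, 16.1 and 14.1 CPM in nucleus (log2 -1.93, SE 0.21, adjusted p 7.07e-05), and so did ESC.6654.4, at 3.72, 4.21 and 4.445 against 14.3, 20.7 and 12.75 CPM (log2 -1.97, SE 0.27, adjusted p 0.000281). EZH2-203 was thus 56.0% of the EZH2 count in hPSC cytoplasm, 39.9% in nucleoplasm, 33.3% on chromatin and 22.9% in labelled nucleus. On the authors' TPM the EZH2-203 change was 0.45 and not called. In ectoderm EZH2-203 was 14.3% of EZH2 in cytoplasm and 2.6% on chromatin. There EZH2-209, whose added exon is shown above, made up 31.5 and 37.5%, or 16.3 and 15.9% when the same libraries were counted on the combined assembly, and ECT.10460.4, which has no Ensembl identifier, 28.1 and 49.0%. EZH2-209 was at 20.5, 15.15 and 19.2 CPM in ectoderm cytoplasm and 70.2, 69.7 and 67.6 CPM on chromatin. Endoderm had EZH2-203 at 64.0% in cytoplasm and 47.3% on chromatin, and mesoderm had 56.0 and 36.2%.

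PHF19-201, the short transcript that reads into an intron, was a larger part of PHF19 in cytoplasm than on chromatin. In mesoderm it was at 5.93, 7.41 and 6.145 CPM in labelled cytoplasm and 1.03, 1.11 and 1.00 CPM in labelled nucleus (log2 2.96, SE 0.57, adjusted p 0.00623). In hPSC it was at 11.65, 2.14 and 5.97 CPM and 0.645, 1.77 and 1.015 CPM (log2 2.47, SE 0.64, adjusted p 0.0108), with a wide spread in cytoplasm. Endoderm held 5.23, 5.47 and 7.33 CPM in cytoplasm and 1.68, 1.51 and 2.07 CPM in nucleus and was not called (log2 1.28, SE 0.53, adjusted p 0.0758). As a share of PHF19 the transcript averaged 26.0% in mesoderm cytoplasm, 24.6% in endoderm, 17.7% in hPSC and 9.8% in ectoderm, and 5.5, 6.0, 5.8 and 3.2% on chromatin. The longer PHF19-202 led in hPSC, with mean shares of 50.2 to 73.4% over the fractions, and PHF19-203 led in mesoderm, with 43.0 to 66.5%. In ectoderm PHF19-202 led except on chromatin, where PHF19-213 held 46.5%. In endoderm it led except in labelled nucleus, where PHF19-203 held 35.7% against 28.8%, and between the endoderm nucleoplasm libraries PHF19-202 ran from 0 to 68.3%.

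**Figure D5:**
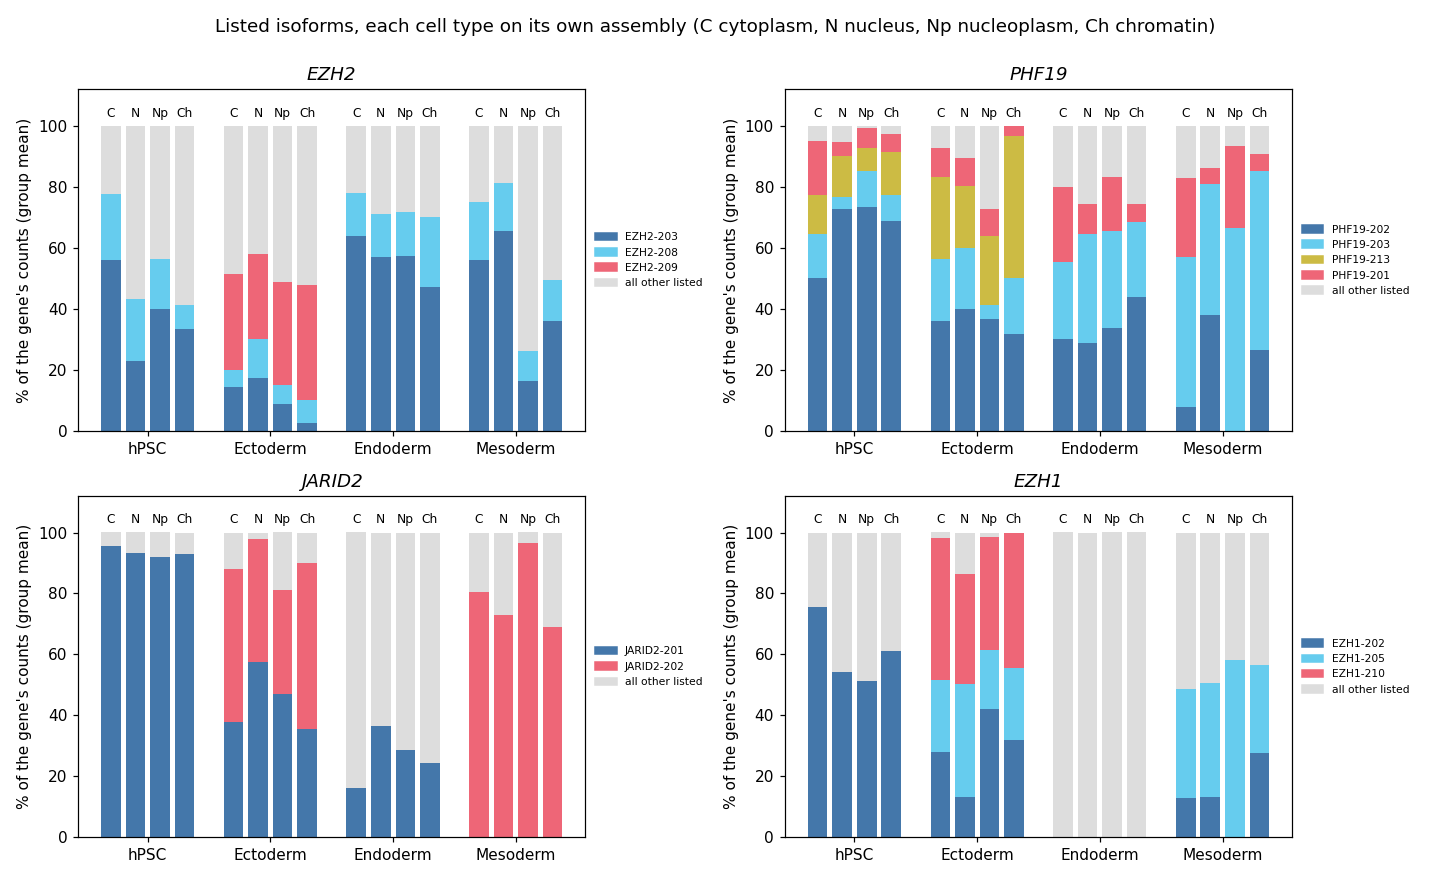
Mean share (%) of each listed transcript in the count of EZH2, PHF19, JARID2 and EZH1, stacked by cell type and labelled fraction. Transcripts without an Ensembl identifier and all others not named in the legend are pooled as other listed. The pool includes ESC.6654.4, which has an Ensembl identifier and holds 28.0% of EZH2 on hPSC chromatin and 26.1% in hPSC labelled nucleus. EZH2-203 holds 56.0% in hPSC cytoplasm and 2.6% on ectoderm chromatin.

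EZH1-210, which retains intron sequence and is annotated without a coding sequence, was the leading EZH1 transcript in ectoderm cytoplasm, at 46.3% of EZH1, and on chromatin, at 44.3%, while EZH1-205 (37.1%) led in labelled nucleus and EZH1-202 (42.0%) in nucleoplasm. It was at 30.5, 28.02 and 39.5 CPM in labelled cytoplasm and 16.54, 13.1 and 17.1 CPM in labelled nucleus (log2 0.72, SE 0.15, adjusted p 0.00978). EZH1-202 led in every fraction of hPSC. In endoderm END.11758.1, which has no Ensembl identifier, led in cytoplasm (51.6%) and labelled nucleus (47.3%) and END.11758.3 in nucleoplasm (48.8%) and on chromatin (45.9%). In mesoderm MES.14075.2, also without one, led except in the single nucleoplasm library. Of these transcripts, ESC.13222.2 was lower in hPSC cytoplasm, at 3.24, 5.41 and 7.96 CPM against 10.75, 25.9 and 15.5 CPM (log2 -1.68, SE 0.43, adjusted p 0.0104), and END.11758.3 in endoderm cytoplasm, at 6.43, 6.57 and 6.02 CPM against 10.0, 17.7 and 19.7 CPM (log2 -1.75, SE 0.23, adjusted p 0.000132).

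JARID2 differed between tables in which start its listed transcripts use. JARID2-201, with the coding first exon shown above, was 95.6% of JARID2 in hPSC cytoplasm and 91.9 to 93.4% in the other fractions. In ectoderm JARID2-201 was 37.8% in cytoplasm and JARID2-202 50.4%, and in mesoderm JARID2-202 was 80.6%. The hPSC and endoderm tables did not list JARID2-202, and a count can go only to a listed transcript, so this part of the difference cannot be told apart from the assemblies. Within ectoderm, where both were listed, JARID2-201 was 34.97 to 51.1% of the pair in cytoplasm, 56.1 to 61.0% in labelled nucleus, 54.0 to 64.6% in nucleoplasm and 29.3 to 49.1% on chromatin. On the combined assembly the same libraries gave 27.3, 31.4 and 100.0% in cytoplasm, 51.6 to 93.6% in labelled nucleus, 67.2 to 90.4% in nucleoplasm and 23.4 to 52.9% on chromatin, so labelled cytoplasm and nucleus overlapped there. Mesoderm JARID2-202 was lower in labelled cytoplasm (log2 -0.83, SE 0.14, adjusted p 0.00312).

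Of the main transcripts of the other genes, RNF2-202 was higher in labelled cytoplasm in hPSC (log2 2.12, SE 0.42, adjusted p 0.00252), ectoderm (log2 1.23, SE 0.20, adjusted p 0.00264), endoderm (log2 3.06, SE 0.33, adjusted p 3.7e-05) and mesoderm (log2 2.09, SE 0.32, adjusted p 0.00233). SUZ12-201 and MTF2-201 were higher in labelled cytoplasm in hPSC, ectoderm and endoderm, and EED-201 in hPSC (log2 1.29, SE 0.18, adjusted p 0.000306) and endoderm (log2 1.60, SE 0.26, adjusted p 0.000585). The authors' TPM lost the calls for RNF2-202 in mesoderm (0.68) and for SUZ12-201 (0.87) and MTF2-201 (0.48) in hPSC. On chromatin against nucleoplasm RING1-201 was higher in endoderm (log2 1.21, SE 0.17, adjusted p 0.000349), and the hPSC JARID2 transcript ESC.5249.1 was lower (log2 -2.40, SE 0.39, adjusted p 0.00795). The ectoderm calls for EZH2-209 (log2 0.87, SE 0.23, adjusted p 0.0294), ECT.10460.4 and RING1-201 each ended when any 1 library was left out. Between labelled cytoplasm and nucleus, hPSC had 11 of 26 tested transcripts called, ectoderm 9 of 33, endoderm 8 of 26 and mesoderm 8 of 31, beside 39.7, 13.7, 42.1 and 32.0% of all transcripts, and 54.5, 35.5, 59.7 and 56.0% of all transcripts did not overlap. Between chromatin and nucleoplasm they were 2 in hPSC, 6 in ectoderm and 2 in endoderm, beside 9.75, 13.9 and 29.9%, and 39.2, 43.3 and 52.8% did not overlap. The authors' counting divided reads between overlapping transcripts, so a transcript's value is less certain than its gene's.

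Levels of different genes were compared on the authors' TPM, which scale each transcript's count by its length. In hPSC cytoplasm JARID2 led, with a mean of 41.0 TPM over libraries from 23.4 to 55.4, a range that held the means of RING1 (25.5 TPM) and MTF2 (24.2 TPM). PHF19 followed at 22.45 TPM, then EZH2 at 18.5, RNF2 at 17.1, EED at 16.2 and SUZ12 at 9.53, with EZH1 at 4.88 and BMI1 at 2.43 TPM last. In ectoderm cytoplasm MTF2 (49.6 TPM) and EZH1 (26.3 TPM) led, and JARID2 stood at 14.9 and PHF19 at 6.77 TPM. That EZH1 value includes EZH1-210, listed in ectoderm only and 594 bases long, against 4623 for EZH1-202. The part of EZH1-210 in the rank of EZH1 was not tested. Endoderm had JARID2 (34.2), RING1 (28.4) and EZH2 (26.95) on top, with EZH1 last at 5.58 TPM, and mesoderm had RING1 (30.4) and JARID2 (24.0) on top and EZH1 (8.73) and BMI1 (7.75) at the bottom. On chromatin MTF2 was at 213.7 TPM in ectoderm, and RNF2, at 8.90 TPM in ectoderm, 4.92 in endoderm and 10.6 in mesoderm, was among the lowest.

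The other Polycomb genes, a list of 37 of which 29 could be tested between all 4 types, moved in both directions. In cytoplasm 16 were higher and 6 lower in ectoderm (median log2 0.64, beside 0.04 over all 10672 genes, of which 4170 were higher and 3948 lower). In endoderm 10 were higher and 10 lower (median -0.10, beside -0.05), and in mesoderm 13 higher and 12 lower (median 0.13, beside 0.01). The shares of all genes called in these comparisons were the 76.1, 59.7 and 68.1% given above. KDM6B, an H3K27 demethylase that opposes PRC2, had the largest rise of the list in each lineage's cytoplasm: it was at 0.730 to 1.44 CPM in hPSC, 125 to 141 CPM in ectoderm (log2 7.16, SE 0.18, adjusted p 1.27e-12), 56.9 to 67.7 CPM in endoderm (log2 5.87) and 60.5 to 66.4 CPM in mesoderm (log2 6.09). In the hPSC table KDM6B is 1 transcript without an Ensembl identifier, so how much of this comes from the assembly was not tested. BCORL1, a corepressor of PRC1 variants, was at 5.88 to 6.77 CPM in hPSC, 104 to 111 CPM in ectoderm (log2 4.05), 31.9 to 40.1 CPM in endoderm (2.28) and 37.3 to 42.7 CPM in mesoderm (2.59), while its paralog BCOR fell in ectoderm, from 31.1 to 47.2 CPM down to 10.4 to 11.6 CPM (-1.96). PHC1, a polyhomeotic subunit of canonical PRC1 that is abundant in pluripotent cells, fell in every lineage: it was at 877 to 1052 CPM in hPSC, 146 to 151 CPM in ectoderm (-2.76), 255 to 471 CPM in endoderm (-1.499) and 331 to 402 CPM in mesoderm (-1.49). EPOP, a PRC2 accessory subunit, rose in endoderm (1.65) and mesoderm (2.30), LCORL, whose gene also yields a PRC2 accessory protein, rose in ectoderm (3.24), and AUTS2, a partner of PRC1, fell there (-1.40). Also among the 3 largest falls, PHC3 fell in endoderm (-1.91) and mesoderm (-1.18), LCOR in endoderm (-1.16) and L3MBTL2 in mesoderm (-1.03). By class, and beside the same 3 shares of all genes, 5 of 6 other PRC2 genes tested were higher in ectoderm and 1 lower, against 2 and 3 in endoderm and 4 and 1 in mesoderm. Of 18 other PRC1 genes 8 were higher and 5 lower in ectoderm, 4 and 7 in endoderm, and 6 and 11 in mesoderm. The 2 demethylases were higher in every lineage, and of 3 deubiquitinase genes 1, 2 and 1 were higher and none lower in ectoderm, endoderm and mesoderm. HOX genes, textbook targets of Polycomb, numbered 7 over the tables, and none was listed in all 4 and tested.

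Across the 16 group means of log2(CPM + 1), the genes most like EZH1 among 9175 were ZNF514 and TMTC4 (both Pearson r 0.96) and ATAT1 (0.96). Those most like EZH2 were MRRF (0.94), the gene ENSG00000291124 (0.91) and NOM1 (0.91). Among the 9 genes listed in all 4 tables, SUZ12 and MTF2 were the most alike (r 0.89) and EZH1 and JARID2 the least (-0.46), with EZH1 and EZH2 at 0.65 and RING1 and RNF2 at -0.06. These correlations are descriptions over groups that share cell types, fractions and assemblies.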

How the data were processed

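RNA-seq was measured in 46 libraries. The deposited count tables hold whole-number counts per transcript, and the deposited TPM tables hold TPM per transcript; per the submitters' processing notes STAR, RSEM and the hg38 build were used, with versions not given in the sources used here. The counts may be RSEM estimates rounded by the authors. The kit named in the labels' protocols does not state strand, so antisense reads cannot be told apart. Transcripts were summed per Ensembl gene. Column names were matched to labels; 1 column of per-sample values matching no sample was not used, the column code left over after all others was taken as nucleus, and the mesoderm nucleoplasm column was matched to its group. Genes were tested with edgeR 4.0.16 (R 4.3.3) by glmQLFit and glmQLFTest, with TMM factors, filterByExpr at a minimum count of 10 and Benjamini-Hochberg adjustment over all genes tested, within a type over its 4 fractions and between types over the genes in all 4 tables. BMI1 was tested without endoderm, a choice made after seeing the data. Alternatives were DESeq2 1.42.0, limma 3.58.1 on log2(TPM + 1), upper-quartile factors, total counts, no filter, the 2 groups alone, a replicate block, each library left out, transcripts in all 4 tables, and the combined assembly. The scripts were tested on simulated data. Of 45 replicate pairs none agreed within sampling noise (lowest chi-square per degree of freedom 14.3). The 10 members and the lists were chosen with earlier results of these data known. Named were the 10 members in every comparison, each member's leading transcript per table, member transcripts that were called, reached a mean of 5 CPM in 1 group and did not overlap, the 3 largest called rises and falls of other Polycomb genes in cytoplasm, and the 3 genes most like EZH1 and EZH2.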

Additional observations from a re-analysis of the deposited data

Results flagged for a closer look

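The cytoplasm to nucleus ratio of a gene, taken between the libraries with those labels, was compared between each lineage and hPSC by an interaction term in edgeR's quasi-likelihood test. The term was called for 5 of 9 genes in ectoderm, 4 of 9 in endoderm and 2 of 9 in mesoderm, beside 52.4, 38.6 and 25.3% of all genes. In ectoderm the ratio was higher than in hPSC for EZH1 (log2 1.28, adjusted p 9.33e-05) and EZH2 (1.27, adjusted p 0.000511), and lower for EED (-0.56, adjusted p 0.0161), PHF19 (-0.76, adjusted p 0.00569) and RNF2 (-0.83, adjusted p 0.0285). On transcripts present in all 4 tables the EZH2 change was 0.18, EED -0.25, PHF19 -0.56 and RNF2 -0.43, none called, and MTF2 was called (1.16, adjusted p 0.0399), while EZH1 had no value. The EED and PHF19 calls ended without ectoderm nucleus replicate 2 (-0.40 and -0.50), and the RNF2 call without ectoderm nucleus replicate 3 (-0.69), ectoderm cytoplasm replicate 2 (-0.79), hPSC nucleus replicate 2 (-0.60) or hPSC cytoplasm replicate 3 (-0.74). In endoderm it was higher for MTF2 (1.14, adjusted p 0.0482) and RNF2 (0.84, adjusted p 0.0429) and lower for PHF19 (-0.73, adjusted p 0.0106) and RING1 (-1.01, adjusted p 0.000692). Without endoderm nucleus replicate 1, which stood apart from its group, the ratio was also called lower for EZH1 (-0.52, adjusted p 0.0228). On total counts the endoderm PHF19 (-0.12) and RING1 (-0.42) calls ended, as they did on the authors' TPM (-0.00489 and -0.30), and on transcripts in all 4 tables those of RNF2 (0.80), PHF19 (-0.59) and MTF2 (1.14) did. Most single libraries, when left out, ended the endoderm MTF2 call (0.83 to 1.18) and the RNF2 call (0.60 to 0.88). In mesoderm it was lower for EED (-1.10, adjusted p 0.00029) and JARID2 (-0.82, adjusted p 0.00851). The summed nuclear RNAs and the mitochondrial RNA moved between these 2 labels differently in mesoderm than in the other types, and their part in these differences was not tested.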

How the results depend on the processing

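Of 6798 values recomputed under an alternative, 6084 kept their side of the threshold or, for counts, stayed within 1.5 times. A change of sign where neither fit was called is among these. Of the rest, 391 lost a call, 179 gained one, 35 changed sign with a call in at least 1 fit, and 109 counts moved further. In 0 of 21 comparisons within a type and 0 of 11 between types did every same-numbered pair correlate above 0.1. Paired libraries could also fail this rule, so it does not exclude that replicate numbers pair the libraries. The replicate block moved the count by over 1.5 times only for mesoderm against hPSC in nucleus (2 to 1). The cause of the changes below was not tested, except that transcripts in all 4 tables leave fewer transcripts to count and give no value for EZH1 or JARID2.
On transcripts in all 4 tables the members called fell in cytoplasm to 1 in endoderm and 3 in mesoderm, in nucleus to 2 and 1, on chromatin to 4 in ectoderm, 1 in endoderm and 0 in mesoderm, in endoderm nucleoplasm to 5, and for the cytoplasm to nucleus ratio to 1 in each lineage. There EZH2 turned in ectoderm to -1.53 in cytoplasm, -0.68 on chromatin and -1.18 in nucleoplasm and in endoderm nucleus to 0.0291, and RING1 in ectoderm nucleoplasm to -0.66. On total counts the members called were 1 in endoderm cytoplasm, 1 in mesoderm nucleus and 3 for the ectoderm ratio, the isoforms called between chromatin and nucleoplasm were 5 in hPSC and 6 in endoderm, and JARID2 turned to 0.0119 and 0.15 (chromatin against nucleoplasm, ectoderm and endoderm) and 0.12 (cytoplasm against nucleus, endoderm).
On the authors' TPM the members called were 2 in mesoderm cytoplasm, 8 in mesoderm nucleus, 5 on mesoderm chromatin and 5 for the mesoderm ratio, and the isoforms called were 9, 16 and 8 between chromatin and nucleoplasm in hPSC, ectoderm and endoderm and 16 between cytoplasm and nucleus in mesoderm. TPM turned these signs: chromatin against cytoplasm, RING1 0.82 and MTF2 0.52 in hPSC, BMI1 0.66, EED 0.12 and JARID2 0.87 in ectoderm, EED 0.65 and BMI1 0.57 in mesoderm; chromatin against nucleoplasm, EED 0.30 and JARID2 0.43 in ectoderm, with their transcripts ECT.14486.1 (0.30) and ECT.8146.2 (0.0677), and JARID2 0.24 in endoderm; cytoplasm against nucleus, PHF19 0.62 in endoderm and EED -1.05, SUZ12 -0.82, RING1 -0.82 and MTF2 -0.98 in mesoderm, with their transcripts MES.10004.1 (-0.86), MES.5715.1 (-0.72) and MES.759.1 (-0.93). Against hPSC it turned BMI1 to -0.0956 in ectoderm nucleus, EZH2 to 0.53 in endoderm cytoplasm, 0.93 in mesoderm nucleus and -0.0810 in ectoderm nucleoplasm, JARID2 to 0.88 in mesoderm nucleus, and the ratios of EED in ectoderm to 0.0556 and of RING1 in mesoderm to -0.68.
With only the 2 groups compared the hPSC chromatin and nucleoplasm differed in 1 member, and 6 were called in mesoderm nucleus, and without endoderm 7 in mesoderm nucleus. The combined assembly gave 3 members and 3 isoforms in ectoderm between chromatin and nucleoplasm and 5 isoforms between cytoplasm and nucleus. Isoforms called between chromatin and nucleoplasm were 3 in ectoderm without a filter, and 8, 13 and 5 in hPSC, ectoderm and endoderm by DESeq2.
Leaving out 1 library gave these members called. Cytoplasm against nucleus: 6 to 8 in hPSC, 7 to 8 in ectoderm, 7 in endoderm and 4 to 5 in mesoderm. Chromatin against nucleoplasm: 1 to 7, 3 to 5 and 4 to 5. Chromatin against cytoplasm: 5 to 6, 5 to 6, 5 to 6 and 4 to 7. Against hPSC, ectoderm, endoderm and mesoderm had 6 to 7, 2 to 3 and 5 to 6 in cytoplasm, 4, 2 to 5 and 1 in nucleus, 6 to 8, 2 to 4 and 3 to 4 on chromatin, and 7 and 7 to 8 in nucleoplasm. The ratio had 3 to 6, 2 to 6 and 2. Isoforms had 9 to 12, 4 to 9, 7 to 9 and 5 to 7 between cytoplasm and nucleus and 1 to 3, 1 to 2 and 1 to 4 between chromatin and nucleoplasm. Depth limits RNF2, SUZ12 and BMI1, whose counts in 1 library ran from 29 to 851, from 32 to 1225 and from 46 to 411.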

Other observations

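The single mesoderm nucleoplasm library enters no comparison. In it EZH1 was at 35.4 CPM, EZH2 at 43.9, SUZ12 at 17.4, EED at 30.25, JARID2 at 124.2, MTF2 at 50.7, PHF19 at 13.1, RING1 at 28.7, RNF2 at 10.4 and BMI1 at 9.12 CPM. Counted on the combined assembly instead of their own, the ectoderm libraries gave the 10 genes median CPM ratios of 0.976 to 1.20, with the highest single ratio, 1.23, at EZH2.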
